A study of Sus scrofa with 8 samples.

Results

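Of 23935 non-control probesets measured in pig endometrium on day 12 of gestation, 4 gave a clear signal in every Yorkshire gilt and a low one in every Meishan gilt. Their names are FARP1, O3FAR1, HMGB1 and CYHR1. On these arrays each transcript is read by a probeset, a handful of short oligonucleotides whose joint signal is a linear intensity. The 4 were selected on these same signals, after each array had been centred on its median. The log2 signal had to be at least 7 on all 4 Yorkshire arrays, called the upper level here, and below 6, a signal of 64, on all 4 Meishan arrays. Their difference between the breeds is therefore a description and was not tested.

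The study compared a breed of ordinary litter size with a prolific one at the stage when the conceptuses elongate. The Yorkshire group was 4 pregnant gilts mated to Yorkshire boars and the Meishan group was 4 pregnant gilts mated to Meishan boars, all at the second or the third estrus. Tissue was used only where elongated conceptuses lay in the uterus, and endometrium was taken from the whole lumen, so each sample mixes epithelium, stroma, vessels and immune cells. RNA of each gilt was hybridized to 1 Affymetrix porcine array.

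Around this time in the pig the conceptuses lengthen into filaments and release estrogen, interleukins and interferons, and the uterine epithelium secretes the proteins and lipids on which they live until they attach. The 4 genes belong to different systems. FARP1 is a guanine nucleotide exchange factor, studied mostly in neurons of rodents, where it acts on Rac1 and the actin skeleton. O3FAR1 is an older symbol of GPR120, a G protein-coupled receptor of long-chain unsaturated fatty acids. HMGB1 is an abundant chromatin protein that bends DNA and, once outside the cell, alerts immune cells through TLR4 and RAGE. CYHR1 is named for a cysteine- and histidine-rich stretch.

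The FARP1 probeset (Ssc.31029.1.A1_at) had signals of 2529, 1717, 2200 and 2420 in Yorkshire gilts 1 to 4, against 46.8, 5.41, 61.1 and 25.4 in Meishan gilts 1 to 4. All Yorkshire gilts were high and near each other, and all Meishan gilts were low. The geometric mean was 2193 in Yorkshire and 25.0 in Meishan, and the log2 difference of Yorkshire minus Meishan was 6.45 (SE 0.70, n = 4 gilts per breed). This was the largest difference toward Yorkshire of the 23935 probesets. The lowest Yorkshire signal was 28.1 times the highest Meishan signal.

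The O3FAR1 probeset (Ssc.9939.1.A1_at) had signals of 542, 676, 374 and 574 in Yorkshire gilts 1 to 4, against 2.66, 53.3, 43.1 and 6.92 in Meishan gilts 1 to 4. The breeds did not overlap, and all Meishan signals were below 64. The means were 529.5 in Yorkshire and 14.3 in Meishan, a log2 difference of 5.21 (SE 0.93), the fourth largest toward Yorkshire. That size and rank rest on Meishan signals below 64. With signals under 32 set to 32, the log2 difference was 3.76. The lowest Yorkshire signal was 7.02 times the highest Meishan signal.

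The HMGB1 probeset of the set (Ssc.22696.1.S1_at) had signals of 176, 245, 161 and 138 in Yorkshire gilts 1 to 4, against 3.77, 34.3, 59.7 and 43.9 in Meishan gilts 1 to 4. Yorkshire gilt 2 was the highest, and all Meishan signals were below 64. The means were 175.9 in Yorkshire and 24.1 in Meishan, with a log2 difference of 2.87 (SE 0.81). It had the narrowest gap of the 4, with a lowest Yorkshire signal 2.30 times the highest Meishan signal.

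The CYHR1 probeset (Ssc.29737.1.A1_at) had signals of 158, 160, 178 and 145 in Yorkshire gilts 1 to 4, against 24.2, 37.2, 38.1 and 43.5 in Meishan gilts 1 to 4. Both breeds were even, with no gilt standing apart. The means were 159.7 in Yorkshire and 34.9 in Meishan, with a log2 difference of 2.19 (SE 0.22), and the lowest Yorkshire signal was 3.33 times the highest Meishan signal.

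**Figure D1:**
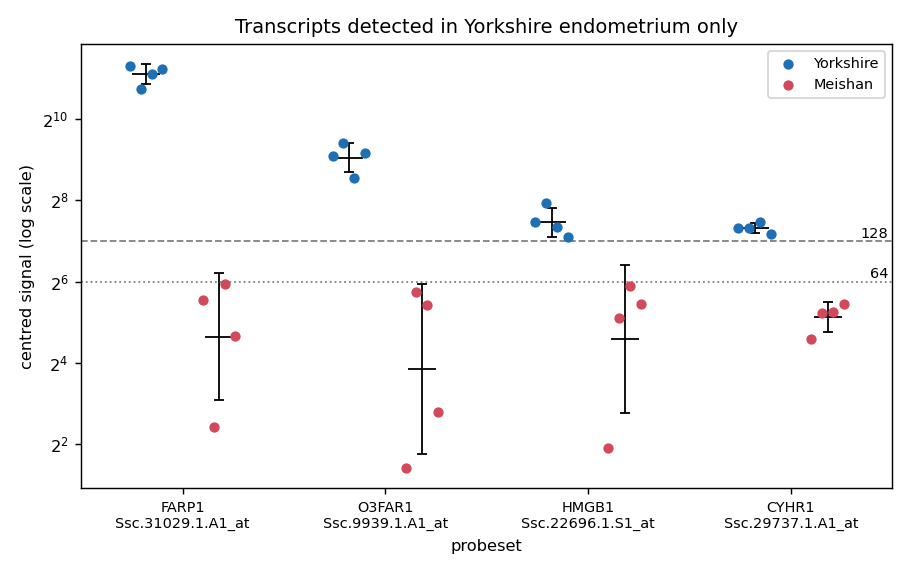
Centred signal (log scale, y axis) of the 4 probesets (x axis) in 4 Yorkshire gilts (blue, left of each pair) and 4 Meishan gilts (red), with the mean and SD of the log2 signals as bars and the upper level and the level of 64 as lines. FARP1 lies at 1717 to 2529 in Yorkshire gilts and at 61.1 or lower in Meishan gilts, and the Meishan signals spread more widely than the Yorkshire signals for each of the 4.

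A signal under 64 gives a size only loosely, so the folds over the Meishan means are uncertain. Set against the level of 64 instead, the Yorkshire mean was at least 34.3-fold higher for FARP1, 8.27-fold for O3FAR1, 2.75-fold for HMGB1 and 2.50-fold for CYHR1. The level itself can be set beside 64 reporter control probesets, which measure no pig transcript. Their signals had a 90th percentile of 42.6 on Yorkshire arrays and 68.6 on Meishan arrays, and 95.3% of them on Yorkshire arrays and 88.7% on Meishan arrays were below 64. In whole endometrium, fewer cells that make a transcript and less of it in each cell cannot be told apart. A low signal at 1 probeset is also not by itself a low transcript of the gene. Other probesets named FARP1 and CYHR1 were at 170 or higher in every Meishan gilt. Probe sequences were not used here, and whether the probes read both breeds alike was not tested.

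The 4 probesets differed in how even they were among gilts of 1 breed. The SD of the log2 signals in Yorkshire was 0.25 for FARP1, 0.36 for O3FAR1, 0.35 for HMGB1 and 0.12 for CYHR1. Of the probesets at or above the upper level in all Yorkshire gilts, 45% had a lower SD than FARP1, 70.5% a lower one than O3FAR1, 69% a lower one than HMGB1 and 9.6% a lower one than CYHR1. In Meishan the SD was 1.57 for FARP1, 2.09 for O3FAR1, 1.82 for HMGB1 and 0.37 for CYHR1. Of the probesets below 64 in all Meishan gilts, 79.5%, 95.9%, 89.5% and 8.2% had a lower SD than these, in the same order. CYHR1 was thus among the more even probesets in both breeds, while O3FAR1 was among the least even at low signal. All Meishan signals of the 4 were below 68.6, the 90th percentile of the reporter controls on Meishan arrays. Their spread and order are therefore not read as differences between Meishan gilts.

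Meeting both limits was rare. The upper level was reached in all 4 Yorkshire gilts by 12152 probesets (50.8%), and 4043 (16.9%) were below 64 in all 4 Meishan gilts, but only 4 (0.017%) did both. Of the others, 11317 reached the upper level in all 8 gilts and 3562 were below 64 in all 8. With the breeds exchanged, the same rule gave 2 probesets. One was GRIK2 (Ssc.27289.1.S1_at), a subunit of kainate-type glutamate receptors, with signals of 63.5, 38.2, 60.1 and 33.4 in Yorkshire gilts and 890, 483, 132 and 847 in Meishan gilts. The other, Ssc.29841.1.A1_at, has no gene name in the sources used here. Its signals were 3.01 to 27.4 in Yorkshire gilts and 152 to 237 in Meishan gilts.

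Across all probesets, 219 (0.915%) were called between the breeds by limma at an adjusted p under 0.1, of which 121 (0.506%) were higher in Yorkshire and 98 (0.409%) were higher in Meishan. The count of 219 moved to between 72 (without Meishan gilt 4) and 205 with 1 gilt left out, and to 0 with the replicate number as a block. FARP1, O3FAR1 and CYHR1 were among the 121 and the HMGB1 probeset was not, but the selection used the same contrast, so nothing is read from that count. Every Yorkshire gilt lay above every Meishan gilt for 1198 probesets (5.01%), and the reverse held for 1209.

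**Figure D2:**
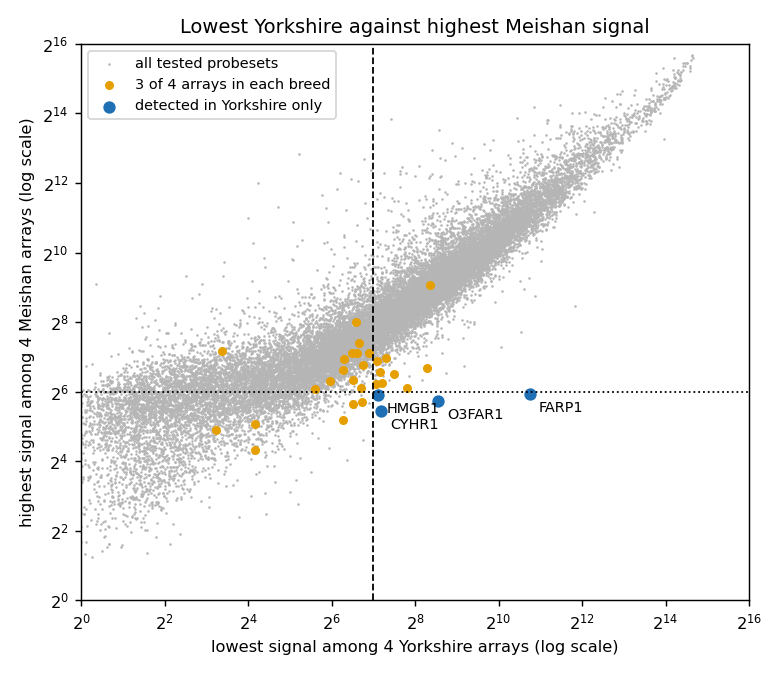
Lowest signal of the 4 Yorkshire arrays (x axis, log scale) against highest signal of the 4 Meishan arrays (y axis, log scale) for all tested probesets (grey), with the 4 selected probesets in blue, those 1 gilt short in a breed in orange, and lines at the upper level (vertical) and at 64 (horizontal). FARP1 lies farthest to the right of the lower right corner, with a lowest Yorkshire signal of 1717, and HMGB1 and CYHR1 lie near the corner's edge at 138 and 145.

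The probesets just inside the Yorkshire limit were HMGB1, with a lowest Yorkshire signal of 138, and CYHR1, with 145. Just inside the Meishan limit were FARP1, with a highest Meishan signal of 61.1, and HMGB1, with 59.7. Just outside the Yorkshire limit was an ACOX2 probeset (Ssc.12904.1.A1_at), with a lowest Yorkshire signal of 119 and a highest Meishan signal of 51.3. ACOX2 is a peroxisomal oxidase of branched-chain lipids. A brighter ACOX2 probeset had signals of 571 to 752 in Yorkshire gilts and 400.6 to 558.5 in Meishan gilts. Its log2 difference was 0.47 (SE 0.185, limma adjusted p = 0.298). A probeset named ACOX2 was thus bright in Meishan endometrium. The dim ACOX2 probeset was followed by ITGB4, an integrin that binds laminin, with 107 and 24.6, and CHD2, a chromatin helicase, with 106.8 and 51.7. Just outside the Meishan limit was the unnamed Ssc.27062.1.A1_at, with a lowest Yorkshire signal of 223 and a highest Meishan signal of 69.3. CCL21, a chemokine that guides lymphocytes and dendritic cells, had 134 and 75.1, and C13orf38 had 149 and 75.6.

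Other probesets of the same genes did not enter the selection by level. There are 6 of them, on FARP1, CYHR1 and HMGB1, and none on O3FAR1. None of the 6 was called by limma with adjustment over all 23935 probesets, beside 0.915% of all. An unadjusted p under 0.05 was found for 2, beside 14.7% of all, and in those same 2 every Yorkshire gilt was above every Meishan gilt, beside 5.01% of all. These 2, on FARP1 and CYHR1, have their names only from the study's list of probesets that differed between the breeds, so that their difference was part of how they were found. The 4 on HMGB1 are named by the array's annotation.

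The other FARP1 probeset (Ssc.11969.1.A1_at) had signals of 434, 356, 474 and 474 in Yorkshire gilts, against 288, 340, 170 and 252 in Meishan gilts. Every Yorkshire gilt was above every Meishan gilt, and all 8 were above the upper level. The log2 difference was 0.76 (SE 0.25), with a limma adjusted p of 0.222. A probeset named FARP1 was thus bright in Meishan endometrium, while the selected one was not.

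The other CYHR1 probeset (Ssc.30931.1.A1_at) gave a like picture, with signals of 397, 436, 449 and 338 in Yorkshire gilts, against 204, 256.1, 231 and 299.9 in Meishan gilts. Again the breeds did not overlap and all 8 gilts were above the upper level. The log2 difference was 0.72 (SE 0.19), with a limma adjusted p of 0.169. This difference passed the threshold in 2 alternatives, with an adjusted p of 0.0764 when signals under 32 were set to 32 and of 0.095 among the brighter probesets alone, and over all alternatives the adjusted p ranged from 0.0764 to 0.31.

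HMGB1 had 4 other probesets, and at each of them the breeds overlapped. Ssc.11100.1.S1_at had signals of 13680, 11800, 13500 and 14720 in Yorkshire gilts, against 16120, 16300, 14120 and 13470 in Meishan gilts. Yorkshire gilt 4 was among the higher gilts and Meishan gilt 4 among the lower ones, so the ranges crossed. The log2 difference was -0.16 (SE 0.17, limma adjusted p = 0.699), opposite in sign to that of the selected probeset. The other 3 had log2 differences of 0.03 at Ssc.11100.1.S2_at, 0.19 at Ssc.20896.1.S1_at and -0.20 at Ssc.20896.2.S1_at, with limma adjusted p of 0.951, 0.723 and 0.744. The signals of Ssc.20896.2.S1_at were near the selection levels in both breeds, at 76.3 to 115 in Yorkshire gilts and 77.8 to 131 in Meishan gilts.

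**Figure D3:**
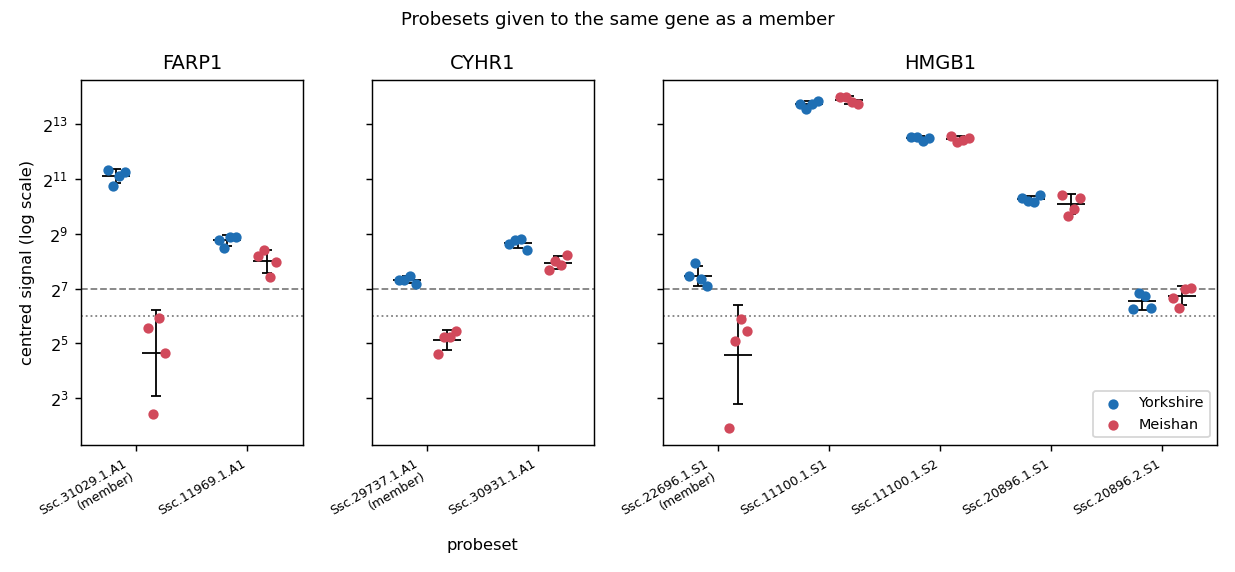
Centred signal (log scale, y axis) of every probeset (x axis) given to FARP1, CYHR1 and HMGB1, in Yorkshire gilts (blue, left of each pair) and Meishan gilts (red), with the mean and SD of the log2 signals as bars and lines at the upper level and 64. At the selected probesets all Meishan gilts are below 64, while the other FARP1 and CYHR1 probesets are at 170 or higher in every gilt and the 4 other HMGB1 probesets overlap between the breeds.

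How the 4 probesets got their names bears on these comparisons. The array's annotation gives a symbol to 42.2% of all tested probesets and to 51.3% of those at or above the upper level in all Yorkshire gilts, but to none of the 4. All 4 are named only by the study's list of probesets that differed between the breeds, as are 4.6% of all tested probesets. Where both sources name a probeset, 225 of 996 names differ, and the names of the 4 could not be checked against a further source. What is said of their genes therefore rests on that list. All 4 selected probesets carry the plain ID ending that marks probes for a single transcript, as 95% of tested probesets do. In the RefSeq gene table (Sscrofa11.1) FARP1 and HMGB1 were found as such, CYHR1 had no match, and O3FAR1 stood among the synonyms of PDE6C, a phosphodiesterase of cone photoreceptors. Which of these 2 genes the O3FAR1 probeset reads was therefore not settled.

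Genes near FARP1, HMGB1 and the RefSeq entry with the O3FAR1 synonym were also read, a choice made after values had been seen. They were the nearest 3 on each side with a named probeset, 1 to 11 protein-coding genes away. Of these 18 genes, 0 were called by limma and 1 had an unadjusted p under 0.05, beside 0.915% and 14.7% of all probesets. Near FARP1 the log2 differences ran from -0.42 for DOCK9, itself an exchange factor of Cdc42, to -0.08 for DNAJC3, 9 genes away. All were toward Meishan. Near O3FAR1 they ran from -0.40 for RBP4, the carrier of retinol that the pig uterus secretes, to 0.63 for EXOC6. Near HMGB1 they ran from -0.96 for HSPH1, a heat shock protein 6 genes away, to 1.13 for ALOX5AP, which helps 5-lipoxygenase make leukotrienes. ALOX5AP averaged 252 in Yorkshire and 115 in Meishan, without overlap (SE 0.33, limma adjusted p = 0.185).

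The systems to which these genes belong showed few differences at genes with an annotated probeset. Of 26 genes of fatty acid sensing, 11 were measured, 7 lay toward Yorkshire and 4 toward Meishan, and 0 were called by limma, beside 0.915% of all probesets. RXRA, a partner of nuclear lipid receptors, averaged 65.4 in Yorkshire and 110.5 in Meishan (log2 difference -0.76, SE 0.29, limma adjusted p = 0.281). ARRB2, the arrestin through which GPR120 signals, averaged 378 in Yorkshire and 289.9 in Meishan (log2 difference 0.38, SE 0.25, limma adjusted p = 0.511). The median log2 difference of the 11 was 0.16, against -0.02 for all probesets.

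Of 31 genes of chromatin remodelling, HMGB proteins included, 21 were measured, 13 toward Yorkshire and 8 toward Meishan, with a median log2 difference of 0.07. None was called and none had an unadjusted p under 0.05, beside 0.915% and 14.7% of all probesets, and so few genes leave little room for a call. EP400 averaged 336 in Yorkshire and 244.7 in Meishan (log2 difference 0.46, limma adjusted p = 0.431). HMGB2, the nearest relative of HMGB1 on the list, averaged 2176 in Yorkshire and 2583 in Meishan (log2 difference -0.25, limma adjusted p = 0.606).

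Most of the other lists covered systems of probesets that lay near the limits, among them oxytocin signalling, peroxisomal oxidation, splice site recognition and pyroptosis. Over all 13 lists, 174 genes were measured, of which 3 were called higher in Yorkshire and 0 higher in Meishan, while 15 had an unadjusted p under 0.05 toward Yorkshire and 11 toward Meishan. An unadjusted p under 0.05 was thus found for 14.9% of the listed genes, beside 14.7% of all probesets, of which 0.915% were called and 0.506% were called higher in Yorkshire. The 3 were SF1, GSDMD and SLC25A17. The lists were drawn up with such differences known, and GSDMD is itself among the probesets that were 1 gilt short of the selection, so these calls restate the breed contrast and are given as a description. SF1, which binds the branch point of introns, came close to the selected set, with 1096, 1062, 1852 and 1371 in Yorkshire gilts, against 87.9, 156.8, 20.1 and 9.46 in Meishan gilts. The breeds did not overlap, but Meishan gilts 1 and 2 were above 64 (log2 difference 5.03, SE 0.83, limma adjusted p = 0.0633). GSDMD, whose cleaved form opens pores in the cell membrane, averaged 136 in Yorkshire and 17.2 in Meishan (log2 difference 2.99, SE 0.55, limma adjusted p = 0.0821). SLC25A17, a peroxisomal carrier of cofactors, averaged 2648 in Yorkshire and 458.5 in Meishan (log2 difference 2.53, SE 0.28, limma adjusted p = 0.0183). SF1 and GSDMD lost the call without any one of Yorkshire gilts 1 to 4 or without Meishan gilt 3 or 4, and GSDMD also without Meishan gilt 1, whereas SLC25A17 kept it without any one gilt.

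Asking for 3 of 4 gilts of each breed in place of all 4 gave 32 probesets, 28 beyond the selected ones. With the breeds exchanged the same looser rule gave 31. Of the 28, 6 missed only in a Yorkshire gilt, 9 only in a Meishan gilt and 13 in both. In 13 of the 28 every Yorkshire gilt was above every Meishan gilt, beside 5.01% of all probesets. Of the 28, 4 were called, beside 0.915% of all. The 28 too were chosen on this contrast, so nothing is read from these counts. The array's annotation names 8 of the 28, the study's list alone names 14, and 6 have no name.

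Those of the 28 with the largest log2 differences were low in 1 Yorkshire gilt. ZBBX had signals of 2785, 17.8, 2096 and 6631 in Yorkshire gilts 1 to 4, against 33.3, 10.4, 13.2 and 28.6 in Meishan gilts. Yorkshire gilt 2 was as low as the Meishan gilts. The unnamed Ssc.30507.1.A1_at had the same low gilt, with 1395, 17.9, 826 and 2985 in Yorkshire gilts, against 10.3, 2.08, 3.72 and 19.9 in Meishan gilts. These had the next largest log2 differences toward Yorkshire after FARP1, at 6.30 (SE 1.56) for Ssc.30507.1.A1_at and 5.59 (SE 1.70) for ZBBX, yet in both the breeds overlapped.

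OXT, the gene of oxytocin, had signals of 3647, 2457, 10.4 and 2209 in Yorkshire gilts, against 144, 22.3, 10.4 and 14.5 in Meishan gilts. Yorkshire gilt 3 was at the Meishan level, and Meishan gilt 1 was the only Meishan gilt above 64. OXTR, the oxytocin receptor, averaged 22.1 in Yorkshire and 63.2 in Meishan (log2 difference -1.52, SE 0.75, limma adjusted p = 0.393). Both OXTR means were below 64, so the size of this difference is uncertain. FAM127A, with 302, 286.5, 77.4 and 291 in Yorkshire gilts, was also low in gilt 3, and its Meishan signals were 3.25 to 36.5.

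Others missed only by 1 Meishan gilt. SLC35F3, a predicted nucleotide sugar or thiamine carrier, had 312.5, 364, 409.8 and 344 in Yorkshire gilts, against 38.5, 102, 3.07 and 35.3 in Meishan gilts. Meishan gilt 2 alone was above 64. S100A6, a calcium-binding protein, had 377, 371, 326 and 529.5 in Yorkshire gilts, against 46.8, 36.6, 22.3 and 532 in Meishan gilts. Here Meishan gilt 4 was as high as the highest Yorkshire gilt. MMP7, the matrilysin protease of glandular epithelium, missed in both breeds, with 78.1 to 603 in Yorkshire gilts and 14.2 to 122 in Meishan gilts.

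No gilt accounted for most of the misses. Of the 28 probesets, Yorkshire gilts 1 to 4 were below the upper level in 6, 6, 3 and 4, and Meishan gilts 1 to 4 were at or above 64 in 5, 8, 3 and 6.

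**Figure D4:**
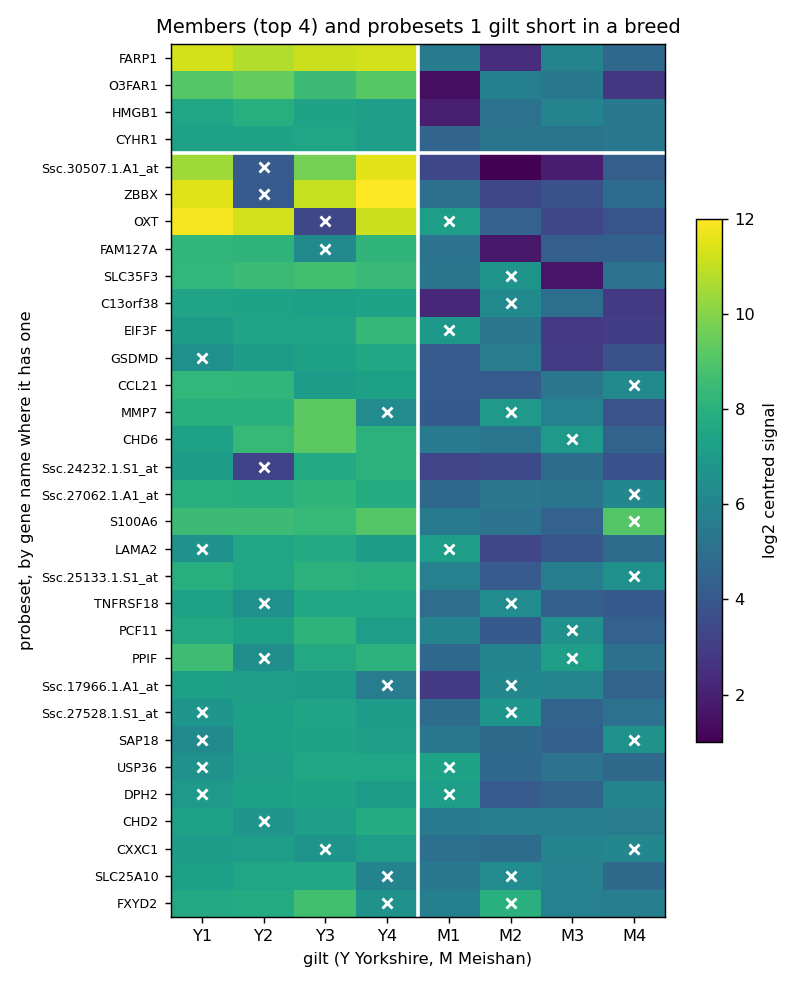
Log2 centred signal (colour) of the 4 selected probesets (top) and the 28 that were 1 gilt short in a breed (rows), in Yorkshire gilts (Y1 to Y4, left) and Meishan gilts (M1 to M4, right), with a white cross where a gilt was on the wrong side of its level. The 4 selected probesets have no cross, and the crosses of the other 28 are spread over all 8 gilts, from 3 in Yorkshire gilt 3 and Meishan gilt 3 to 8 in Meishan gilt 2.

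Measures of the arrays and of the tissue were read beside these results. The median signal was 172 to 188 on Yorkshire arrays and 169 to 196 on Meishan arrays. The hybridization spike-ins, bacterial and phage sequences added at fixed amounts, differed between the breeds: over 27 probesets their mean log2 signal was 11.11 ± 0.23 on Yorkshire arrays and 12.11 ± 0.30 on Meishan arrays (SD, n = 4 each), without overlap. The difference of -0.995 had a two-sided exact permutation p of 0.0286, the smallest that 70 assignments allow. The reporter controls also had a higher median signal on Meishan arrays, at 14.9 against 11 on Yorkshire arrays. Since the spike-ins split the arrays by breed, a difference in hybridization cannot be told apart from breed here. Its part in the result was not tested.

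Uterine tissue markers were present in both breeds. The summed signal of 11 epithelial markers was 57160 to 70710 in Yorkshire gilts and 60250 to 67060 in Meishan gilts. That of 7 stromal markers was 50760 to 61590 in Yorkshire gilts and 60570 to 67040 in Meishan gilts. Of each list 0 were called, beside 0.915% of all probesets. Of 9 vessel markers, whose sum was 6388 to 8179 in Yorkshire gilts and 5946 to 6038 in Meishan gilts, 0 were called, but the sums did not overlap, and their part in the result was not tested. Over all 10 marker lists limma called CCL21 higher in Yorkshire (adjusted p = 0.0952), which is no independent call since CCL21 lay just outside the selection on this same difference, and CD79B, a B cell receptor chain, lower in Yorkshire, at 34.2 against 80.5 in Meishan (adjusted p = 0.0920).

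Markers of the conceptus were more uneven. Of 13 trophectoderm genes measured, 10 lay toward Yorkshire and 0 were called, beside 48.1% and 0.915% of all probesets. Their median log2 difference was 0.60, against -0.02 for all probesets. Their sums were 3460 to 10250 in Yorkshire gilts and 3602 to 4235 in Meishan gilts. Of the 13, only CYP19A1 and STAR were below 64 in every gilt. CYP19A3, on the same list, was above 64 in every gilt, at 200 to 438 in Yorkshire gilts and 66.6 to 479 in Meishan gilts. IFNG, the interferon that pig conceptuses secrete, had signals of 4600, 222, 6284 and 33.4 in Yorkshire gilts, against 14.2, 905.5, 305 and 114 in Meishan gilts. It was high in Yorkshire gilts 1 and 3 and lowest of that breed in gilt 4. TFAP2C, a trophectoderm factor also made elsewhere, averaged 51.0 in Yorkshire and 6.07 in Meishan (log2 difference 3.07, SE 0.63, limma adjusted p = 0.105). Both TFAP2C means were below 64, so the size of this difference is uncertain. Every Yorkshire gilt was above every Meishan gilt for TFAP2C, as for 5.01% of all probesets. The part of conceptus tissue in the 4 selected probesets was not tested.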

How the data were processed

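Endometrial RNA of 8 gilts was measured on one-colour Affymetrix porcine arrays, 1 per gilt. The deposited intensity values are linear signals that the authors made from the scans with GCOS 1.2, scaled by them to 1 level: with the top and bottom 2% of probesets set aside, every array averaged 500.1. Detection calls, scan dates and slides were not used here. The authors' own test fitted natural logs in SAS, with random slide and animal effects, and the log means and p-values of their supplementary list were not used.

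Of 24123 probesets, 124 spike-in and 64 reporter controls were left out. The log2 signals of the other 23935 had each array's median taken off and the mean of the 8 medians added back. Means are geometric. Selection asked for a centred signal of at least 128 in every Yorkshire gilt and below 64 in every Meishan gilt. Yorkshire was compared with Meishan with limma 3.58.1 in R 4.3.3 (lmFit, eBayes, 2.1 prior degrees of freedom), with Benjamini-Hochberg adjustment over all 23935 probesets and calls at an adjusted p under 0.1, the authors' q threshold. The procedure was tested on simulated data. The number of arrays limits the precision. Gilts were separate animals.

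Names came from the platform table (1 symbol for 10110 probesets, several for 157), then from the authors' list (1099 more). No symbol changed among the 9961 matched in RefSeq. Genes of lists were taken at their brightest annotated probeset. The selected probesets, the lists (13 of pathways, 10 of cell markers) and the rule for named genes were chosen with earlier results of these data known. That rule named every selected gene, the 3 probesets nearest each limit, the other probesets of selected genes, called genes of a list and up to 2 with the lowest p. SF1, OXTR, HMGB2, the brighter ACOX2 probeset, the neighbouring genes and those 1 gilt short in a breed were named after values were seen. Probe, promoter and protein sequences were not used here, and 1 list is not reported here.

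Alternatives were the scaling, the levels, the number of gilts required, a filter and a floor on dim signals, an intensity trend, the methods' analysis of variance, a stricter threshold (0.05), a block for the replicate number, each gilt left out in turn, the mean over a gene's probesets and, added after seeing the data, keeping the reporter controls.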

Additional observations from a re-analysis of the deposited data

Results flagged for a closer look

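Over 41 items, 82 groups of 4 gilts were checked. The items were the 4 selected probesets, the 6 others of their genes and the 2 Meishan-only probesets. The 28 that were 1 gilt short in a breed and the mean of the hybridization spike-ins made up the rest. Other probesets named in the text were not checked. The check was for 1 gilt far from the other 3 of its breed, and 6 groups held one. Chance gives such a gilt in about 1 group in 20, but that rate cannot be applied here, because all 6 probesets are among the 28 chosen for having at most 1 gilt of a breed on the wrong side of its level. In Yorkshire, OXT was at 10.36 in gilt 3, with 2209, 2457 and 3647 in the others, and FAM127A was at 77.36 in the same gilt, with 286.5, 291 and 301.9 in the others. The unnamed Ssc.17966.1.A1_at was at 48.95 in Yorkshire gilt 4, with 129.5 to 147.8 in the others. In Meishan, USP36, a deubiquitinase, was at 168.1 in gilt 1, with 27.14 to 36.57 in the others. FXYD2, a regulator of the sodium pump, was at 254.1 in Meishan gilt 2, with 51.83 to 55.96 in the others. CHD2 was at 47.67 in Meishan gilt 1, with 51.2 to 51.73 in the others, a gap that is small in size. None of FARP1, O3FAR1, HMGB1 and CYHR1 had such a gilt at the probeset of the set.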

How the results depend on the processing

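The set of 4 depended on its levels more than on the scaling. It held 2 probesets with both levels lowered by 1 log2 unit (ITGB4 and an unnamed probeset, none of the 4), 0 with only the Meishan level lowered to 32, 2 with the upper level raised by 1 log2 unit (FARP1 and O3FAR1), 53 with the upper level as the limit in both breeds and 32 with 3 of 4 gilts. Without further scaling it held 3, since FARP1 reached 64.7 in Meishan gilt 3, and after cyclic loess it held 6, without HMGB1. Leaving out each gilt gave 4 to 8, and all 4 stayed in. The count was 8 without Yorkshire gilt 2 and 8 without Meishan gilt 4. The log2 differences ran over the alternatives from 5.72 to 6.88 for FARP1, 3.76 to 5.84 for O3FAR1, 1.97 to 3.30 for HMGB1 and 2.02 to 2.36 for CYHR1. The count of 2 Meishan-only probesets became 1 after quantile normalization and 1 with the lower level at 32, Ssc.29841.1.A1_at each time. After cyclic loess normalization it was also 1, but this was SNX9, and neither of the 2 stayed in. The count was 5 with both levels lowered, 0 with the upper raised, 53 with 1 limit and 31 with 3 of 4 gilts. It was 2 to 7 with a gilt left out. The 219 calls became 747 with the filter on dim probesets, 875 with the floor of 32, 629 with the trend, 70 at a threshold of 0.05 and 72 to 205 with a gilt left out, at most 114 without any one gilt other than Yorkshire gilt 4 or Meishan gilt 1. Of the 6 other probesets, 1 (CYHR1) was called with the filter and 1 with the floor. The 3 listed genes became 5 with the filter, 14 with the floor, 1 at 0.05, and 1 to 3 with a gilt left out. HMGB1 at Ssc.11100.1.S2_at turned to -0.032 without scaling and in the analysis of variance, and ran from -0.012 (without Meishan gilt 2) to 0.068 with a gilt left out. The cause of these moves was not tested.

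Replicate numbers did not pair the gilts. Deviations of same-numbered gilts correlated at -0.06, 0.09, 0.00 and 0.04, and 3 of 8 gilts correlated best with their own number. With the number as a replicate block limma called 0 probesets (3319 at an unadjusted p under 0.05) and 0 listed genes. Signals under 64 give only a bound on a fold.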
